A study of Mus musculus with 2 samples.

Results

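Endothelial cells line blood and lymphatic vessels, and they form a small share of the cells dissociated from olfactory mucosa. The data come from a droplet 3' RNA sequencing experiment (Chromium v3) on olfactory epithelium of a male C57BL/6 mouse. One naris had been closed at postnatal day 14 (unilateral naris occlusion), which blocks airflow through that side of the nose. Tissue was taken at postnatal day 28 from the closed (left) side and from the open (right) side, and 1 library was made from frozen, dissociated cells of each side after dead cells had been removed. Both groups therefore share the mouse, strain, sex, age and operation, and they differ in the side. In the deposited matrix a barcode ends in 1 or 2 according to its library. Nothing in the sources used here ties an ending to a side, so the libraries are called library 1 and library 2. With 1 library per side no difference between them has a replicate check, and no test was made.

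Cells were chosen by their counts of unique molecular identifiers (UMIs, each standing for 1 captured transcript). Of 12491 barcodes, 8298 passed limits of 1000 UMIs or more, 500 genes or more and no more than 10% mitochondrial UMIs. A kept cell was taken as endothelial when Pecam1, Cdh5, Egfl7, Flt1 and Emcn together gave at least 3 UMIs from at least 2 of these genes. It also had to hold at most 4 UMIs of Col1a1, Col1a2, Col3a1 and Dcn (fibroblast genes) and less than 0.3% of its UMIs from Cyp2g1 and Cyp2a5 (sustentacular cell genes). The rule found 65 cells, 32 of 3032 in library 1 and 33 of 5266 in library 2. No barcode among them was present in both libraries, although 12 barcodes were, counted before the cell filter.

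The endothelium separates blood from tissue in several ways that differ between vessels. Capillaries with fenestrations carry diaphragms built from the protein PLVAP, whereas vessels with a tight barrier are sealed by claudin 5, take up glucose through the transporter encoded by Slc2a1 and pump foreign compounds out through ATP-driven exporters. Post-capillary venules present selectins to passing leukocytes, and lymphatic vessels, specified by the transcription factor PROX1, secrete the chemokine CCL21, which guides dendritic cells and T cells.

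The rule's cells made up 1.06% of kept cells in library 1 (exact binomial 95% interval 0.723 to 1.49%) and 0.627% in library 2 (0.432 to 0.879%). Without 6 library 2 cells described next, the share in library 2 was 0.513% (0.338 to 0.745%). These intervals, and the others below, cover counting error only. Here they overlapped, but without the 6 cells only from 0.723 to 0.745%. An overlap does not show that the shares were alike. Other stromal cells, chosen by their own genes, were at like shares in both libraries. Fibroblasts were at 2.24% in library 1 and 2.47% in library 2, and cells of pericyte and smooth muscle type were at 0.989% and 0.855%. C1q-positive cells, a macrophage-type group, were at 2.14% and 2.37%. The endothelial cells held 145881 UMIs in library 1 and 225682 in library 2, with medians of 3533 and 3646 per cell. Without the same 6 cells, library 2 held 103512 UMIs with a median of 2912. The median over all kept cells was higher, at 5528 and 5139.5 UMIs.

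The label was checked against 25 pan-endothelial genes that the rule did not use, among them Cldn5, Tie1, Tek, Kdr, Esam and Ramp2. In 59 of the 65 cells these genes gave between 0.359 and 3.14% of all UMIs, with a median of 1.32%. In the other 6 cells, all in library 2, they gave between 0 and 0.0783%. No cell lay between those ranges. The 6 cells had 3 to 7 UMIs of the rule's genes and none of Cdh5, which encodes VE-cadherin.

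The 6 cells held genes of other lineages. One was a cell of 69215 UMIs, which was 30.7% of all UMIs of library 2's 33 cells, with 2772 UMIs of Pf4, 1379 of Ppbp, 272 of Itga2b and 212 of Gp9, genes of megakaryocytes and platelets. Its rule UMIs were 6 of Pecam1 and 1 of Flt1. Another pair, of 9155 and 18940 UMIs, held neutrophil granule transcripts, with 119 and 196 UMIs of Prtn3, 66 and 72 of Elane and 56 and 65 of Mpo. A cell of 12766 UMIs held neuronal precursor and cycling genes, with 21 UMIs of Insm1, 19 of Neurod1, 14 of Neurog1 and 17 of Top2a. A cell of 6192 UMIs held 37 UMIs of Gng13, 29 of Atf5 and 11 of Insm1, and the last, of 5902 UMIs, held 11 of Cd69, 5 of Rac2 and 5 of Selplg, which are leukocyte genes. In these 6 cells the data go against the endothelial label. Gene levels below are therefore given for the 59 other cells, 32 in library 1 and 27 in library 2, a choice made after seeing the data. The 6 cells held 122170 of library 2's UMIs. A gene absent from them has a library ratio lower by 1.12 on the log2 scale over all 65 cells, and 65-cell values are given with the library ratios below.

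**Figure D1:**
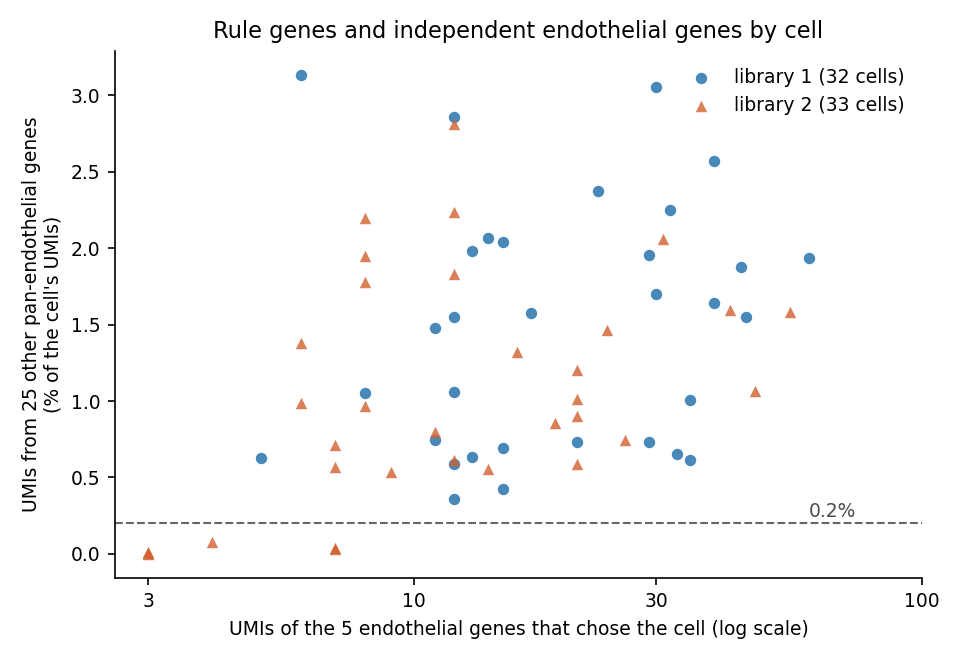
Each point is 1 of the 65 cells. The horizontal axis (log scale) gives its UMIs of the 5 genes that chose it and the vertical axis gives the percentage of its UMIs from 25 other pan-endothelial genes, with the dashed line at 0.2%. All 32 library 1 cells (circles) lie at or above 0.359%, and 6 library 2 cells (triangles, some on top of each other) lie at or below 0.0783%.

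At the edge of the rule, 42 kept cells had exactly 2 UMIs of its genes, and pan-endothelial genes were at 0 in 29 of them and at most 0.0819% in the rest. The 3 members with exactly 3 such UMIs were all among the 6 cells above. Another 8 cells had 3 or more UMIs from a single rule gene, and these had at most 0.0487% pan-endothelial UMIs. The limit on collagen UMIs alone removed 5 cells, of which 4 had at least 0.2% pan-endothelial UMIs, and the limit on sustentacular UMIs alone removed 3, all above it. These values chose or bordered the members and are given as description.

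The genes of the rule were detected across the 59 cells as follows. Egfl7, which encodes a secreted protein of vessel tubes, had UMIs in all 59 cells, against 1.77% of the 8233 other kept cells. Cdh5 had UMIs in 54 cells, Pecam1 in 49, Emcn in 42 and Flt1, a receptor for vascular endothelial growth factor (VEGF), in 40. The shares in other kept cells were 0.292% for Cdh5, 4.18% for Pecam1, 0.158% for Emcn and 0.182% for Flt1. The median depth was 3186 UMIs in the 59 cells and 5302 in the others. Summed over each library and scaled to 1000000 UMIs (CPM, a level that does not depend on transcript length in 3' counting), Cdh5 was at 760.9 in library 1 and 801.8 in library 2, and Pecam1 was at 575.8 and 608.6.

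Outside the rule, the pan-endothelial genes stood together. Summed, they reached 14313 CPM in library 1 and 12762 CPM in library 2, against 72.1 and 83.8 CPM in other kept cells. They were at 472 and 464 CPM in pericyte-type cells, 346 and 230 CPM in fibroblasts and 114 and 167 CPM in C1q-positive cells. Of the 25 genes, 24 were at least 2-fold higher than in other kept cells in both libraries, and Erg, with 2 UMIs and 0 UMIs, was the exception. Among 751 genes with at least 50 UMIs, 264 (35.2%) were so and 13 (1.73%) were at least 2-fold lower in both libraries. Over all 65 cells the shares were 23.3% and 1.85%. This contrast chose the cells, so the count is a description. Ramp2, a partner of the adrenomedullin receptor, was at 1481 and 1507 CPM, and Cd34 was at 541.5 and 531.3 CPM. Ptprb, a phosphatase acting on the TIE2 receptor, was at 644.4 and 473.4 CPM, and Sox17 was at 486.7 and 415.4 CPM. Other kept cells had less than 3 CPM of Cd34, Ptprb and Sox17.

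The genes with the greatest excess over other kept cells were vascular and lymphatic. On the log2 scale after adding 1 CPM, and taking the smaller of both libraries' values, Ccl21a led at 11.48, followed by Mmrn1 at 8.49, Sox17 at 8.17 and Ptprb at 7.98. The drug exporters Abcb1a and Abcg2 were at 7.88 and 7.40. Lyve1, a hyaluronan receptor of lymphatic vessels, was at 7.78 and Plvap at 7.72. Ly6c1, a surface protein of mouse blood vessels, was at 7.67, with 3825 CPM in library 1 and 2734 CPM in library 2 against 14.5 and 12.4 CPM in other cells. Ly6c1 has a close relative in Ly6c2 and Ccl21a has near-identical copies, so how the authors' counting divided their reads is uncertain.

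Transcription factors of the ETS family bind sites with a GGAA core and are known regulators of endothelial genes. Erg, an ETS factor, was almost undetected, but Fli1 was at 164.5 and 183.6 CPM and Ets1 at 212.5 and 193.2 CPM. The letters AGGAAG were searched on both strands (CTTCCT on the other) in the 250 bases before each RefSeq gene start (build GRCm38.p6). Of the 25 pan-endothelial genes 13 were matched, with 16 starts, and 9 of the 16 windows (56.25%) held the letters, against 29.5% of all 32851 windows. In other preset lists the letters were in 7 of 15 windows for blood-brain barrier transport, 5 of 9 for venous genes, 5 of 10 for leukocyte adhesion and 1 of 8 for lymphatic genes. The longer form ACCGGAAG (CTTCCGGT on the other strand), which does not overlap AGGAAG, was in none of the 16 and in 1.72% of all. The following 80-base stretches are shown because they carry a match in genes measured here, with the matching letters in capitals, and Cldn5 is shown as a gene without one. Each is written 5' to 3' on the strand of its gene. A match is only a description of these letters.
Eng, chr2:32646515-32646594, plus strand: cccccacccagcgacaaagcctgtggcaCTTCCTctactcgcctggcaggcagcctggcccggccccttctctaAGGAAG
Robo4, chr9:37401883-37401962, plus strand: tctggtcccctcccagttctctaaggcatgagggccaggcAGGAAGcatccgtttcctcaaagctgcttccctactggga
Tie1, chr4:118490020-118490099, minus strand: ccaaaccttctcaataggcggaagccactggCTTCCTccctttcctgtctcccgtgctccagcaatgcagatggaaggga
Calcrl, chr2:84425293-84425372, minus strand: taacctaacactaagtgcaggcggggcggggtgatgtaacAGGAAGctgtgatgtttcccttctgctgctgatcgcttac
Cldn5, chr16:18776767-18776846, plus strand: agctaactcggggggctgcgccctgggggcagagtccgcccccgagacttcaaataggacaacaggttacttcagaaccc

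Of these, Eng encodes endoglin, a co-receptor for bone morphogenetic proteins, and was at 500.4 and 647.3 CPM. Tie1, an orphan receptor related to TIE2, was at 239.9 and 280.2 CPM and Robo4, a guidance receptor, at 137.1 and 164.2 CPM. Calcrl, which with Ramp2 forms the adrenomedullin receptor, was at 205.6 and 173.9 CPM. Each of these 4 genes was under 5 CPM in other kept cells of both libraries.

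The 59 cells fell into 5 clusters when grouped by variable genes without the rule's genes. The clusters held 16, 15, 13, 9 and 6 cells. Clusters were named after a vessel type only where genes of the preset lists for vessel subtypes led them, and otherwise after a leading gene. Since each was defined by these same genes, what follows describes them and tests nothing. The clusters differed in their makeup by library, with 10 and 6, 8 and 7, 6 and 7, 7 and 2, and 1 and 5 cells from library 1 and library 2, and their sizes are not compared between libraries.

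The lymphatic-like cluster had 15 cells. It held all 1244 UMIs of Ccl21a (Ensembl ENSMUSG00000094686, chromosome 4, 42772860 to 42773993, minus strand, GRCm38), at 10 to 290 UMIs per cell. That made 21142 CPM (exact Poisson 95% interval 19983 to 22350), and the gene had UMIs in 9 of 8233 other kept cells. Mmrn1, which encodes multimerin, had 133 UMIs in 14 of the 15 cells and none in the other 44. The lineage factor Prox1 had UMIs in 11 cells, Flt4, the receptor for VEGF-C, in 13, Reln in 9 and Pdpn, which encodes podoplanin, in 11. Of other kept cells, 2.08% had a UMI of Prox1, 1.15% of Reln and 0.146% of Flt4. Lyve1 was uneven, with 64 UMIs in 5 of the 15 cells. Maf, a transcription factor placed here in the list for fenestrated and sinusoidal vessels, had 59 of its 60 UMIs in these cells, and all 21 UMIs of Stab2, a scavenger receptor, were there too.

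The lymphatic-like cells lacked several blood vessel transcripts. Flt1 and Ly6c1 were at 0 UMIs in all 15 cells, for which 3 counts would be 51.0 CPM, while they were detected in 40 and 42 of the 44 other cells. Esam, a junction protein, and Sparcl1 were also at 0 UMIs there, and Cd34 had 2 UMIs. Nr2f2, a factor of veins and lymphatics, was at 696.8 CPM, against 34.2 CPM in the largest cluster. Lcn2, known as a neutrophil granule gene and an acute-phase gene, had 92 UMIs in 12 of the cells, and 19.96% of other kept cells had a UMI of it. The other 9 genes of the neutrophil list had 0 UMIs in library 1 and 7 UMIs in library 2 over the 59 cells. Interferon-response genes were at 10928 CPM in this cluster and between 4384 and 6282 CPM in the other 4, with Ifitm3 at 6645 CPM and Bst2, an antiviral tether, at 1682 CPM with UMIs in all 15 cells. Immediate early genes were at 26274 CPM, under the 35715 to 51987 CPM of the other clusters.

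The remaining 44 cells divided by Plvap and Cldn5. Of them, 19 had UMIs of Plvap alone, 16 of Cldn5 alone, 8 of both and 1 of neither. In the lymphatic-like cells both genes were present together, in 13 of 15 cells. In other kept cells Plvap was detected in 1.29% and Cldn5 in 1.06%. Detection depends on depth, and no test was made of this division.

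The cluster of 16 cells was led by Rbp7, Rgcc and Igfbp3 and held Plvap in every cell, at 2688 CPM (2284 to 3143). Cldn5 was in only 2 of its cells, at 154 CPM. Genes of the capillary list reached 6730 CPM there, with Rgcc, a cell-cycle regulator of capillary cells, at 2226 CPM, Fabp4, a fatty acid carrier, at 1712 CPM and Gpihbp1, which anchors lipoprotein lipase at the capillary wall, at 925 CPM. The cluster also had the highest level of basement membrane genes, 22757 CPM against 4408 to 10220 CPM in the other clusters. Igfbp7 made up most of this at 13510 CPM, and Col4a1, a chain of type IV collagen, was at 1421 CPM. Kdr, the main signalling receptor for VEGF, was at 736 CPM, against 187.5 to 458.9 CPM elsewhere.

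The cluster of 13 cells was led by Spock2, a secreted proteoglycan, and by transporter genes. Spock2 had 151 UMIs (2425 CPM) and the glucose transporter Slc2a1 82 UMIs (1317 CPM) in 11 cells. Of other kept cells, 16.2% and 17.2% had a UMI of Spock2 and Slc2a1, at a higher median depth. In the Plvap-rich cluster of 16 cells Slc2a1 was at 0 UMIs, for which 3 counts would be 51.4 CPM. The amino acid transporter Slc7a5 was at 1317 CPM, the lipid transporter Mfsd2a at 417.5 CPM and the exporters Abcb1a and Abcg2 at 931 and 883 CPM. The 12 genes of the blood-brain barrier transport list together were at 8656 CPM, against 425 to 3680 CPM in the other clusters. Cldn5 was in all 13 cells, at 2553 CPM, and Plvap in 3, at 129 CPM. Glul, which encodes glutamine synthetase, was at 2264 CPM and Mal at 2585 CPM. Fabp4 was at 0 UMIs here, while Cxcl12, a chemokine, was at 2072 CPM and Bmx, a kinase of arterial cells, had 18 of its 32 UMIs.

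The cluster of 6 cells was venous-like, but 1 of them, from library 2, had no UMI of the venous list and 15 of the arterial list, 10 of which were Mgp. The 6 cells held Vwf, the clotting carrier of Weibel-Palade bodies, at 77 UMIs in 5 cells (2829 CPM) and Selp, which encodes P-selectin, at 31 UMIs in 5 cells (1139 CPM). Of other kept cells, 1.11% and 0.389% had a UMI of Vwf and Selp. All 11 UMIs of Ackr1, an atypical chemokine receptor of venules, fell in 3 of these cells. Vcam1 had 24 UMIs in 3 cells and Icam1 12 UMIs in 4. Sele, which encodes E-selectin, had 29 UMIs, 26 of them in 1 cell. Aqp1, a water channel, was at 5547 CPM and Lrg1 at 2204 CPM. The venous list was at 9514 CPM, against 546 to 2464 CPM in the other clusters. All 27 of the cluster's Lyz2 UMIs, a myeloid gene, were in 1 cell, the only one from library 1. That cell also held 32 leukocyte-list UMIs, 2 of them Ptprc. It supplied 14 of the 31 Selp UMIs and 59 of the cluster's 259 venous-list UMIs.

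The cluster of 9 cells was led by Rgs5, a pericyte gene, and was left unnamed. It held 371 of the 395 UMIs of the 12 pericyte and smooth muscle genes found in the 59 cells. These UMIs were uneven, from 0 to 175 per cell with a median of 6, and 3 cells held 92.5% of them. All 31 UMIs of Vtn were in 1 cell, and 3 of the 9 cells had none of the list. Pan-endothelial genes gave 0.693 to 2.57% of the UMIs of each cell, so both programmes were counted under the same barcodes. Arterial genes were at 8462 CPM here, of which Mgp, a matrix protein of mural and arterial cells, was 5274 CPM, and Gja4, a connexin of arteries, was at 398.5 CPM. These sums were uneven, since 2 of the 9 cells held 174 of the 225 Mgp UMIs and 226 of the 361 arterial UMIs. The median cell had 6184 CPM of arterial genes, in a range from 1145 to 39646 CPM. Gja5, the other arterial connexin, had 1 UMI in all 59 cells.

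**Figure D2:**
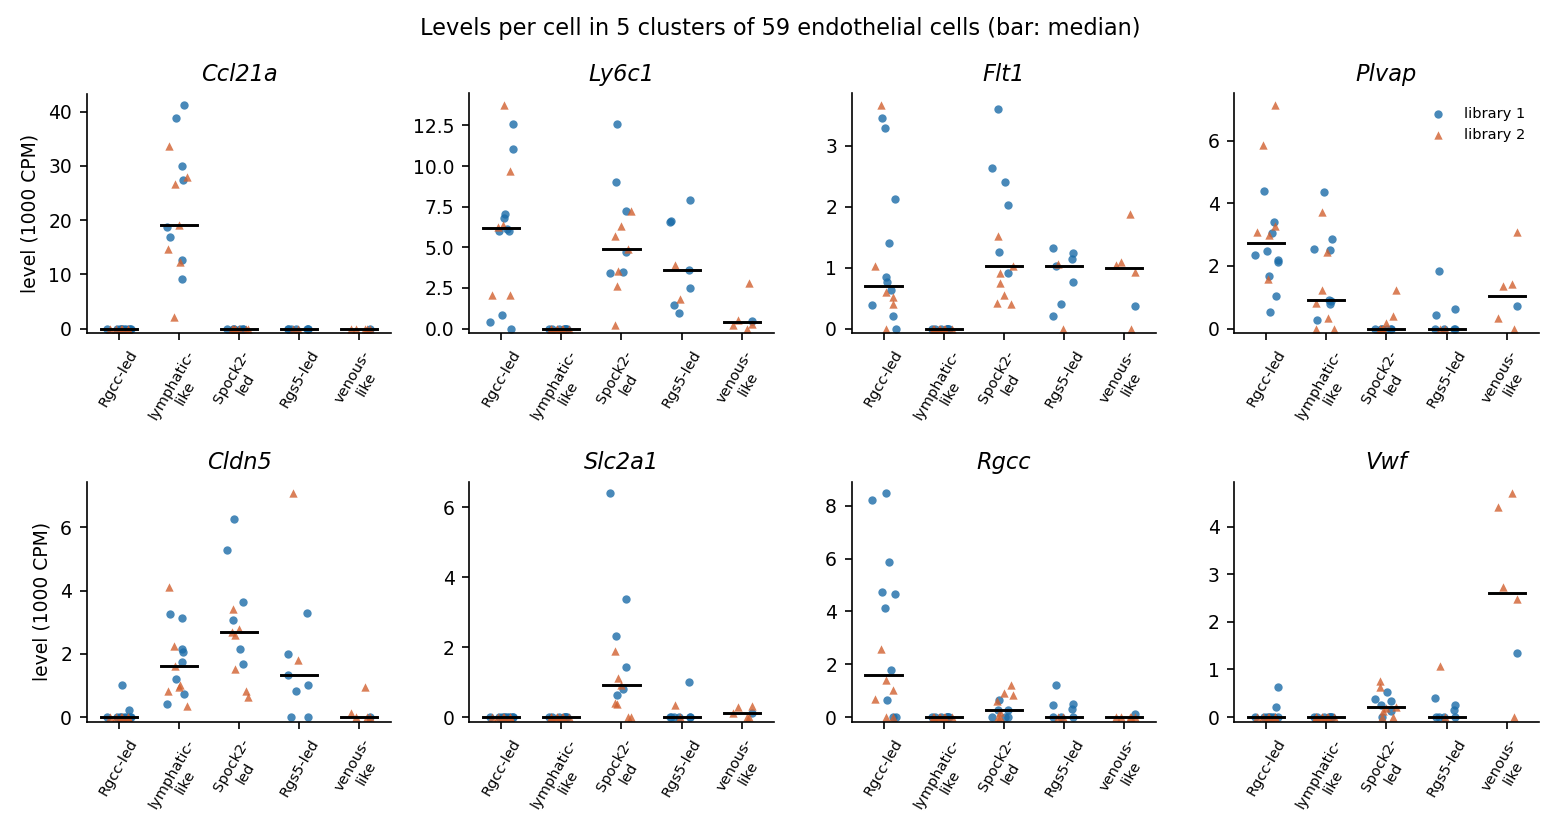
Each point is 1 of 59 cells, in 5 clusters along the horizontal axis. The vertical axis gives the level of 1 gene per panel in units of 1000 CPM of that cell, circles are library 1, triangles library 2, and bars are medians. Ccl21a is seen in the lymphatic-like cells alone, where Ly6c1 and Flt1 are at 0, and Plvap and Cldn5 take opposite places in the Rgcc-led and Spock2-led clusters.

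In the VEGF and angiopoietin pathway receptor genes were detected and several ligand genes were near 0. Kdr, Flt4, Nrp1, Nrp2 and Tek, receptors for VEGFs and angiopoietins, and the orphan receptor Tie1 each had 47 to 102 UMIs in the 59 cells. The ligand Vegfa had 3 UMIs in library 1 and 1 UMI in library 2, Angpt1 had none in either and Angpt2 had 2 and 4. For 0 UMIs in the 59 cells, 3 counts would be 12.03 CPM, and other kept cells had 4.84 and 5.37 CPM of Angpt1, so a level like theirs was not detectable here. Pgf had 15 UMIs, 14 of them in the lymphatic-like cells. Apln and Esm1, genes of sprouting tip cells, had 11 UMIs and 10 UMIs in all.

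In the bone morphogenetic protein pathway, the receptor gene Acvrl1 was at 191.9 and 202.9 CPM against 3.71 and 4.82 CPM in other kept cells. The target gene Id3 was at 2077 and 2116 CPM against 373 and 307 CPM. In the Notch pathway, Hes1 was lower than in other kept cells at 438.7 and 521.7 CPM against 766 and 667 CPM, and Hey1 had 9 UMIs. Notch1 was at 171.4 and 125.6 CPM.

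Genes that respond to blood flow were high in both libraries. Klf2 was at 4984 and 3980 CPM, with UMIs in 58 of the 59 cells, against 255 and 190 CPM in other kept cells, of which 40.4% had a UMI. Klf4 was at 1412 and 1459 CPM and Thbd, which encodes thrombomodulin, at 267.3 and 241.5 CPM. The 17 immediate early genes, which cell dissociation can induce, summed to 39512 CPM in library 1 and 38479 CPM in library 2, against 18644 and 13989 CPM in other kept cells and 30906 and 20814 CPM in pericyte-type cells. Fos was at 9138 and 8105 CPM. The part of such induction in the level of Klf2 was not tested.

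Class I genes of antigen presentation were detected and class II genes were at or near 0. H2-D1, a class I heavy chain, was at 1398 and 1372 CPM and B2m at 911.7 and 792.2 CPM, against 284 and 286 CPM and 177 and 217 CPM in other kept cells. The class II genes Cd74, H2-Aa and H2-Ab1 were at 0 UMIs in both libraries, where 3 counts would be 20.6 CPM in library 1 and 29.0 CPM in library 2, while other kept cells had 433 and 417 CPM of Cd74. Il33, an alarmin, had 2 UMIs in the 59 cells, against 275 and 287 CPM in other kept cells. Ccl2 and Ccl7 were at 0 UMIs in both libraries, and Cxcl12 had the most UMIs of the 14 preset chemokine and cytokine genes, at 1145 and 927.4 CPM.

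Few transcripts of dividing cells were seen. The 15 cell cycle genes had 20 UMIs in library 1 and 10 UMIs in library 2, or 137 and 96.6 CPM, against 480 and 662 CPM in other kept cells. Mki67, Cdk1, Ccnb1 and Birc5 were at 0 in both libraries. Over all 65 cells library 2 had 115 UMIs of these genes, most of them from the 6 cells. The olfactory epithelium renews its neurons throughout life, and the other kept cells were not divided by lineage here.

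Between libraries, few genes were 2-fold apart in the 59 cells. Among 756 genes with at least 50 UMIs, 27 (3.57%) were at least 2-fold apart, 12 higher in library 2 (1.59%) and 15 lower (1.98%). The median log2 ratio of library 2 over library 1 was 0.02. Over all 65 cells 327 of 1191 genes (27.5%) were past 2-fold. Of 20 pan-endothelial genes tested, 8 were higher in library 2, 12 lower and 0 past 2-fold, with a median of -0.09. Over all 65 cells the same 20 genes were all lower in library 2, with a median of -1.12. Past 2-fold were 15 of them, where 13.9% of all genes were 2-fold lower. The 59 cells were chosen by the list that holds these genes, and all cells left out were in library 2. The direction of the shift between these medians was set by that choice. These ratios compare 2 libraries, not 2 conditions.

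**Figure D3:**
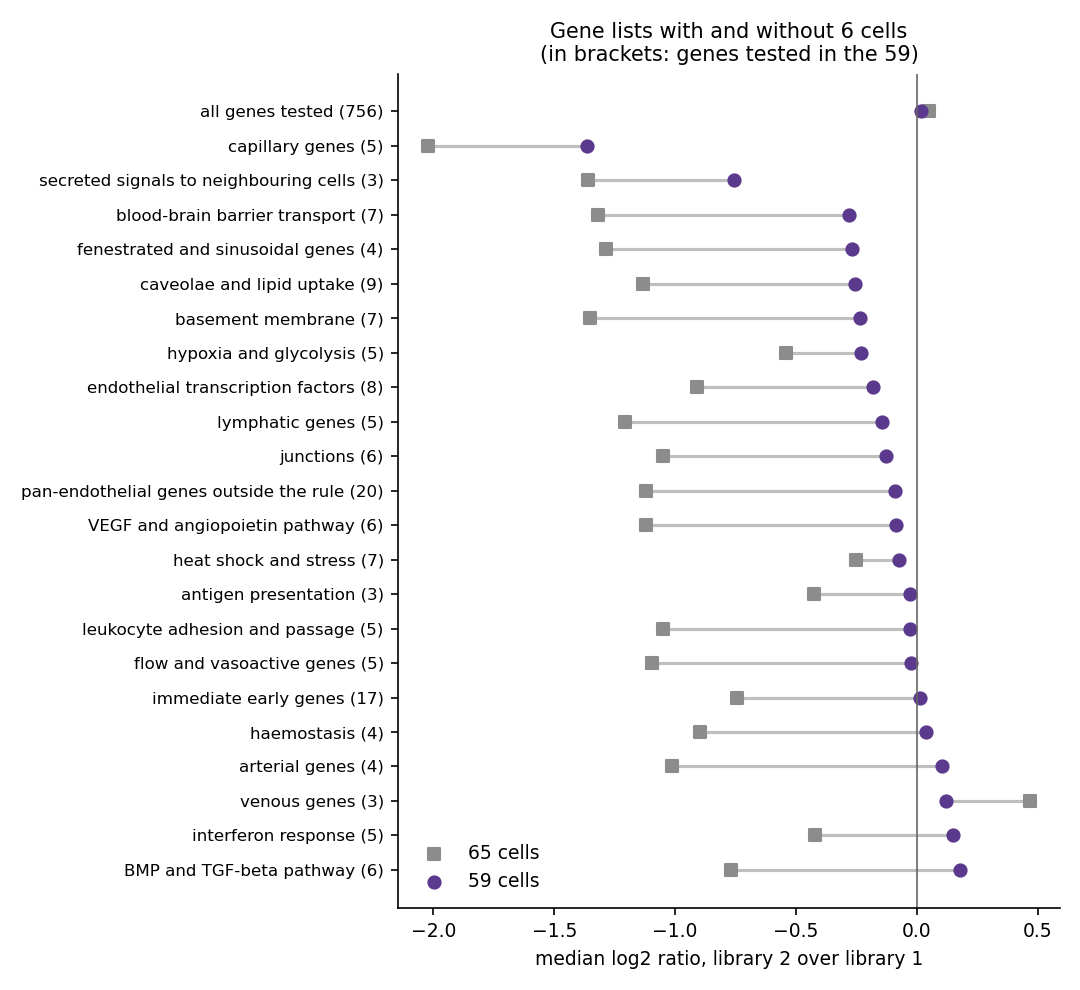
For each preset gene list (vertical axis, number of genes tested in the 59 cells in brackets), the horizontal axis gives the median log2 ratio of library 2 over library 1. Squares are all 65 cells and circles the 59 cells, which were chosen by the pan-endothelial list. Most lists move from about -1 towards 0 when the 6 cells are left out, and the capillary list stays lowest, at -1.37. All genes tested have a median near 0 in both, but they are 1191 genes over 65 cells and 756 over the 59.

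Genes of the capillary list were lower in library 2. All 5 tested were lower, where 360 of all 756 genes were. Past 2-fold were 3 of them, where 1.98% of all genes were 2-fold lower. The median log2 ratio of the 5 genes was -1.37, and -2.02 over all 65 cells. Fabp4 had 168 UMIs in library 1 (1152 CPM) and 38 UMIs in library 2 (367.1 CPM), a log2 ratio of -1.65 (exact conditional 95% interval -2.20 to -1.13). Its ratio over all 65 cells was -2.59. Fabp4 was uneven, since 3 cells held 58.9% of the UMIs in library 1 and 86.8% in library 2. Rgcc had 131 UMIs in 16 of 32 cells (898 CPM) and 36 UMIs in 9 of 27 cells (347.8 CPM), a ratio of -1.37 (-1.94 to -0.83), and 7.11% of other kept cells had a UMI of it. Car4, a carbonic anhydrase of the capillary surface, had 44 UMIs and 7 UMIs, with 81.8 and 100% of them in 3 cells. Gpihbp1 was at 452.4 and 241.5 CPM, a ratio of -0.90 (-1.63 to -0.22), and Sgk1, a kinase, was close in both at -0.12. With all 65 cells Rgcc was at -1.88, Car4 at -3.24, Gpihbp1 at -2.02 and Sgk1 at -0.95.

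Within the cluster of 16 cells Rgcc was at 2687 CPM in its 10 library 1 cells and 1077 CPM in its 6 library 2 cells, while Fabp4 was at 1823 and 1436 CPM. Of the cluster's 24 Fabp4 UMIs in library 2, 23 were in 1 cell, and in library 1 the gene was at 0 in 6 of the 10 cells. Plvap, in contrast, was at 2327 CPM in library 1 and 3589 CPM in library 2 there. Over the 59 cells Plvap was at 1186 and 1150 CPM, with UMIs in 22 of 32 and 18 of 27 cells, a log2 ratio of -0.04. Over all 65 it was -1.12. The part that the clusters' makeup has in the library ratios was not tested.

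Genes of the fenestrated and transport lists were mostly less than 2-fold apart. Igfbp3, a binding protein for insulin-like growth factors in the fenestrated list, was lower in library 2, with 118 UMIs (808.9 CPM) and 24 UMIs (231.9 CPM), a log2 ratio of -1.80 (-2.50 to -1.16). In library 1, 3 cells held 77 of its UMIs, and in library 2, 3 cells held 18. Its ratio over all 65 cells was -2.92. Plvap, Cd300lg and Maf in the same list were between -0.04 and -0.29, and between -1.12 and -1.41 over all 65. All 7 transport genes tested were lower in library 2, where 360 of all 756 genes were, with a median of -0.28. Only Slco1a4, an organic anion transporter, was past 2-fold. Over all 65 cells all 7 were at least 2-fold lower, where 13.9% of 1191 genes were, with a median of -1.32. The UMIs of Slco1a4, 47 and 12, lay in few cells, with 31 of them in 1 cell of the Rgs5-led cluster. Slc2a1 was at 452.4 CPM in 8 of 32 cells and 328.5 CPM in 9 of 27 cells, a ratio of -0.46. Cldn5 was at 1549 and 1343 CPM, a ratio of -0.21, and lay between 0 and 43 UMIs per cell in library 1 and 0 and 23 in library 2. Slco1a4 was at -2.58, Slc2a1 at -1.58 and Cldn5 at -1.31 over all 65 cells.

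Vwf was higher in library 2, with 25 UMIs in 11 of 32 cells (171.4 CPM) and 78 UMIs in 10 of 27 cells (753.5 CPM), a log2 ratio of 2.13 (1.47 to 2.85). In library 2, 3 cells held 74.4% of them, and of the 5 cells with Vwf in the venous-like cluster 4 were from that library. Library 2 had 166 UMIs of Vwf over all 65 cells, and the ratio was 2.10. The UMIs beyond the 78 came from the 6 cells that go against the endothelial label. Nr2f2 and Lrg1, the other venous genes tested, were at 0.12 and 0.00, and at -0.85 and -1.08 over all 65. Mgp was at 1186 CPM and 2492 CPM, a ratio of 1.07, with 67.6 and 65.9% of its UMIs in 3 cells. The direction changed over all 65 cells, where the ratio was -0.05. Its levels per cell ran from 0 to 32920 CPM in library 2. Edn1, which encodes the vasoconstrictor endothelin, had 15 UMIs and 27 UMIs (102.8 and 260.8 CPM), under the limit of 50 UMIs set for a ratio. Its library 2 level over all 65 cells was 119.6 CPM.

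**Figure D4:**
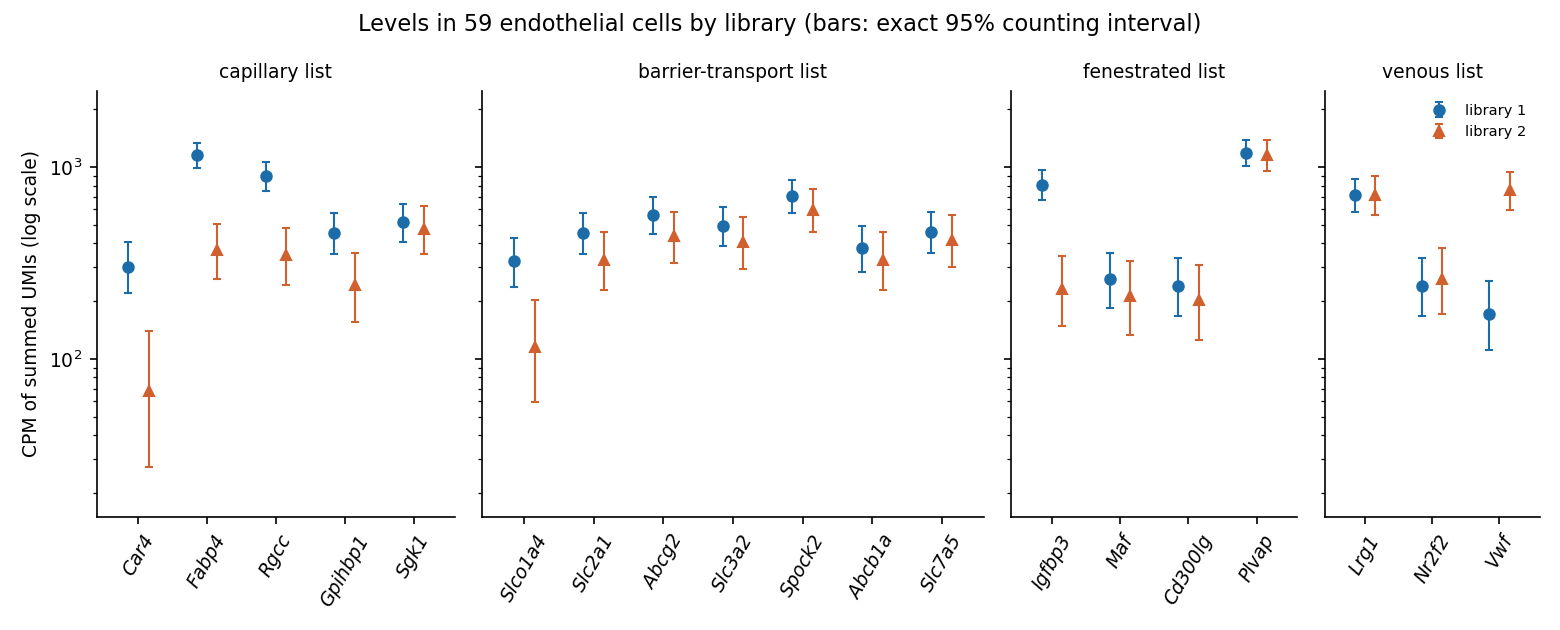
Levels in CPM of summed UMIs (vertical axis, log scale) in the 59 cells for genes of 4 lists (horizontal axis), circles for library 1 and triangles for library 2, with exact 95% Poisson intervals that cover counting error only. Fabp4, Rgcc, Car4, Igfbp3 and Slco1a4 have intervals that do not overlap and are lower in library 2, and Vwf is higher.

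Other genes named by the rule for library ratios were few. In the higher library alone, that rule leaves out genes with over 50% of their UMIs in 3 cells. Lower in library 2 were Gas6, a ligand of TAM receptors, at 322.2 and 115.9 CPM (log2 ratio -1.47), Plpp1, a lipid phosphatase, at 548.4 and 222.2 CPM (-1.30), Kitl, stem cell factor, at 267.3 and 115.9 CPM (-1.20), and Tsc22d3, a glucocorticoid-induced gene, at 623.8 and 289.8 CPM (-1.10). Over all 65 cells Gas6 was at -2.58, Plpp1 at -2.36, Kitl at -2.31 and Tsc22d3 at -2.001. In library 2, the lower library for these genes, 3 of the 59 cells' barcodes held 69.6% of Plpp1 UMIs. For Kitl, Gas6 and Tsc22d3 the share of 3 cells there was 58.3, 50 and 36.7%. Higher in library 2 were Cd9, a tetraspanin, at 459.3 and 1053 CPM (1.20), Cnn3, a calponin, at 178.2 and 396.1 CPM (1.15), Ctla2a at 664.9 and 1304 CPM (0.97) and Jam2, a junction protein, at 185.1 and 357.4 CPM (0.95). With all 65 cells Cd9 was at 2.63, Cnn3 at 0.13 and Ctla2a at 1.35, and Jam2 changed direction to -0.10. Library 2 had 109 UMIs of Cd9 and 135 of Ctla2a in the 59 cells, against 644 and 384 over all 65. The excess lay in the 6 cells that go against the endothelial label. The 17 immediate early genes split into 9 above and 8 below 0 on the log2 scale (median 0.01), and only Ctgf was past 2-fold, at 1.60. Their median over all 65 cells was -0.74 and Ctgf was at 0.48.

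Markers of mural cells differed between the libraries. The 12 pericyte and smooth muscle genes were at 2605 CPM (380 UMIs, all 12 genes detected) in library 1's 32 cells and at 145 CPM (15 UMIs, 8 genes at 0) in library 2's 27 cells, against 1005 and 832 CPM in other kept cells. Of library 1's 380 UMIs 343 were in 3 cells, and 19 of its 32 cells had none. Their part in the ratios above was not tested. Without the 9 cells of the Rgs5-led cluster, 23 of 622 genes (3.70%) were past 2-fold. Fibroblast genes had 3 UMIs and 0 UMIs, and T and NK cell genes had none. The 10 macrophage and monocyte genes had 33 UMIs in library 1, 28 of them Lyz2, and 13 in library 2, 12 of them Mrc1. Of that list C1qa, C1qb, C1qc and Csf1r were at 0 in both libraries. Platelet and megakaryocyte genes were at 1330 and 1594 CPM, against 47.0 and 80.5 CPM in other kept cells. Of their 194 and 165 UMIs, 190 and 164 were Gng11. Leukocyte genes had 145 and 65 UMIs, of which 106 and 59 were Srgn, a proteoglycan gene that endothelial cells express as well.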

How the data were processed

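UMI counts per gene and barcode (31053 genes) were deposited by the authors, made with Cell Ranger 3.0.2 on mm10 per the submitters' processing notes; the sources used here do not say whether depth was equalised between libraries. The cells and gene lists were chosen with earlier results of these data known. Kept cells held 21444390 UMIs in library 1 and 37996298 in library 2. Counts of chosen cells were summed per library, scaled to CPM with exact Poisson intervals, and compared as log2 ratios after adding 1 CPM for genes with at least 50 UMIs; at 1 library per side no p-value was computed. Named genes were the 25 highest over other kept cells, the 10 largest library ratios each way, 8 leading genes per cluster and preset list members. Such a ratio needed, in the higher library, at least 100 CPM and no 3 cells holding over 50% of UMIs. Clusters used scanpy 1.11.5 and leidenalg 0.10.2 (1000 variable genes, 15 components, 10 neighbours, resolution 1). A doublet caller marked 7 of 8298 cells (0.0844%), too few to be used, so doublets were kept. The ratio and its interval were tested on simulated counts drawn without variation between cells, so genes held by few cells were not covered. Gene positions are from GENCODE M21 and promoters from RefSeq.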

Additional observations from a re-analysis of the deposited data

How the results depend on the processing

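No paired analysis was possible because no result comes from a test and each side has 1 library. The share of kept cells (1.06 and 0.627% in libraries 1 and 2) moved to 2.13 and 1.11% with at most 5% mitochondrial UMIs. It moved to 0.711% in library 1 with no cell filter. Without cells holding 3 or more leukocyte-list UMIs it was 0.495 and 0.399%. Without cells holding 3 or more UMIs of any of 5 other-class lists it was 0.165 and 0.152%, so values under this limit rest on few cells. Among the 59 cells, 19 in library 1 and 15 in library 2 had 3 or more platelet-list UMIs, almost all of Gng11. Leukocyte-list UMIs were mostly Srgn. These 2 limits therefore do not count cells of other lineages. Genes past 2-fold (27.5% over 65 cells) came to 3.91% with at least 5 rule UMIs from 3 genes, 9.17% and 14.6% under the leukocyte and 5-list limits, 9.82% by mean per cell, and, as alternatives added after seeing the data, 3.57% without the 6 cells and 3.70% also without the Rgs5-led cluster. The pan-endothelial median of library 2 over 1 (-1.12) was -1.36 with at least 2500 UMIs, -1.27 with at most 5% mitochondrial UMIs, -0.040 with the stricter rule, -0.60 under the leukocyte limit, -0.53 by mean per cell, -0.089 without the 6 cells and -0.038 also without the Rgs5-led cluster. Its median over other kept cells (5.92) was 5.71, 6.96, 6.96 and 6.77 under the mitochondrial, stricter-rule, 6-cell and Rgs5-led settings, 4.63 with a pseudocount of 5 CPM and 6.55 by mean per cell. Of single genes, Plvap turned to 0.21 under the leukocyte limit and 0.79 under the 5-list limit, where Ctla2a turned to -0.86 and Slc9a3r2 to 0.069; Ccl21a was -2.10 without the highest doublet scores. Of single-gene ratios under planned settings, 325 stayed, 73 moved and 4 changed sign. Under settings added after seeing the data, 36 stayed and 51 moved. A change of sign was counted only for genes at least 2-fold apart over all 65 cells, so those of Mgp and Jam2 given above were not. The shares, medians and cluster numbers are outside these counts. Settings that changed the cells also changed which genes reached 50 UMIs. The causes were not tested. The 15 lymphatic-like cells stayed in 1 cluster at every resolution over 65 and 59 cells, while under the leukocyte limit 8 of the 14 left did. The Rgs5-led cluster of 9 cells did not hold together when all 65 cells were clustered, and parted into groups of 1, 1, 3 and 4. In that clustering the cluster of 13 cells parted into 11 and 2, that of 6 into 5 and 1 and that of 16 into 15 and 1. With 59 cells and a median of 3186 UMIs, genes under 50 UMIs were not compared.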

Other observations

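Endothelial transcripts were also found outside the rule. Pan-endothelial genes gave at least 0.2% of UMIs in 67 other kept cells, 21 in library 1 and 46 in library 2, with a median of 0.279% and a highest value of 1.31%. A further 3 barcodes of library 2 met the endothelial rule but not the cell filter, and these genes gave 1.04 to 2.88% of their UMIs.

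Matrix genes set the endothelial cells beside other stroma. The 15 basement membrane genes summed to 11736 and 10376 CPM in the 59 cells, 11746 and 9700 CPM in fibroblasts and 7709 and 10034 CPM in pericyte-type cells, but to 58.9 and 52.9 CPM in C1q-positive cells. All 15 were higher in the 59 cells than in C1q-positive cells in both libraries. Sparc, a collagen-binding protein, was at 2715 and 2309 CPM in the 59 cells, and Hspg2, which encodes perlecan, was at 390.7 and 541 CPM.

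Caveolar genes were present in most clusters. Cav1 was at 459.3 and 444.4 CPM and Cavin2 at 548.4 and 502.4 CPM in the 59 cells, against less than 4 CPM in other kept cells. Cavin3 was at 1445 CPM in the lymphatic-like cells, with UMIs in all 15. The metallothionein gene Mt1 was lower in the 59 cells, at 2098 and 1140 CPM, than in other kept cells, at 5150 and 3900.3 CPM.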
